A study of Mus with 16 samples.

Results

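*Phlda3* (ENSMUSG00000041801), a gene induced by p53, was set beside p53 itself (*Trp53*, ENSMUSG00000059552) and 5 further p53-pathway genes in the postnatal day 6 (P6) mouse forebrain with and without the histone demethylase KDM5C. The others were *Mdm2* (ENSMUSG00000020184), *Bax* (ENSMUSG00000003873), *Ccng1* (ENSMUSG00000020326), *Sesn2* (ENSMUSG00000028893), and *Bbc3* (ENSMUSG00000002083). The 7 genes were found by identifier among the 54219 genes counted, and all 7 were among the 17866 that passed the filter on low counts. *Phlda3* was chosen because it changed between genotypes in these same animals, so its genotype differences are given as a description without a test. The other 6 genes were chosen as p53 and well-known p53 targets, to ask whether the change of *Phlda3* was shared by the pathway.

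p53 is a transcription factor that is held at a low level in unstressed cells and is stabilized by DNA damage and other stress. Its activity is regulated largely at the level of the protein, so the mRNA of *Trp53* says little about it, and the mRNA levels of its targets are often read in its place. In the brain, p53 is known for its part in the death of neurons and progenitors after damage. MDM2 is the ubiquitin ligase that marks p53 for degradation and is itself a p53 target, which closes a feedback loop. BAX and the BH3-only protein PUMA, encoded by *Bbc3*, act in mitochondrial apoptosis. Cyclin G1, encoded by *Ccng1*, takes part in the feedback on p53, and Sestrin 2, encoded by *Sesn2*, restrains mTORC1 in stressed cells. PHLDA3 is a small pleckstrin homology domain protein that competes with AKT for membrane lipids and so restrains AKT.

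The samples were forebrains (cortex and hippocampus) of 16 mice at P6, in 4 groups of 4, namely WT and *Kdm5c*-KO males and WT and *Kdm5c*-HET females. *Kdm5c* is X-linked, so the KO males carry only the deleted allele and the HET females carry 1 deleted and 1 intact copy. By the methods of the study, Cre recombination removed 2 exons of the gene in the germline allele, the strain background was mixed C57BL/6J and 129S1/SvImJ, and the animals came from 3 litters. Each animal was a separate library of poly(A) RNA. Each animal had between 21513783 and 30063352 counts in all. *Kdm5c* itself could not be paired with an identifier and is not analysed here. The neuronal marker *Rbfox3* lay between 216 and 275 CPM (TMM-normalized CPM, the counts of a gene scaled to a common library size) in every animal. The choroid plexus gene *Ttr* ranged from 0.277 to 201 CPM among animals, and was highest in the WT males 2D and 5D and the WT females 1D and 3D, followed by the HET females 8E (84.5 CPM) and 9E (57.7), while none of the remaining animals exceeded 5.60. Every sample label also carries a letter, D or E, whose meaning is not given in the sources used here. In bulk tissue, fewer cells that express a gene and less RNA per cell cannot be told apart.

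*Phlda3* lies at chr1:135766085-135769134 on mm10 (GRCm38.p6, RefSeq). In the WT males it was at 13.3 CPM (animal 2D), 17.9 (5D), 15.2 (7D), and 12.5 (1E). In the *Kdm5c*-KO males it was at 23.0 (4D), 24.8 (6D), 20.4 (2E), and 26.4 (3E). Every KO male was above every WT male, the lowest KO male being 2E and the highest WT male 5D. The group means were 14.7 ± 2.41 and 23.7 ± 2.56 CPM (SD, n = 4), and the fitted difference was 0.68 on the log2 scale (Log2FC; SE 0.0995, 95% confidence interval 0.47 to 0.89), a rise of 60.1%.

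In the WT females *Phlda3* was at 11.4 CPM (1D), 12.6 (3D), 12.7 (4E), and 14.1 (5E). In the *Kdm5c*-HET females it was at 17.6 (9D), 17.3 (6E), 17.4 (8E), and 18.0 (9E). The 4 HET females lay closer together than the animals of any other group and did not overlap with the WT females. The means were 12.7 ± 1.09 and 17.6 ± 0.329 CPM (SD, n = 4), a Log2FC of 0.47 (SE 0.102, interval 0.26 to 0.68), or 38.5%. The Log2FC in males was 0.21 larger than that in females (interval -0.09 to 0.51), and this interval includes 0. With single animals left out, this difference lay between 0.14 and 0.33. The HET females overlapped with the WT males, whose highest animal (5D) reached 17.9 CPM.

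*Phlda3* thus stood in the order *Kdm5c*-KO males, HET females, WT males, and WT females, and of these neighbours only the KO males and HET females did not overlap. The WT females were at a Log2FC of -0.22 against the WT males (interval -0.43 to -0.01), a comparison that played no part in the choice of the gene. It had an unadjusted p of 0.0439 in edgeR and did not pass the threshold after adjustment over all genes (q = 0.262). With single animals left out, this Log2FC of *Phlda3* lay between -0.29 and -0.11 (q from 0.141 to 0.658). Among the 635 genes called as risen in the KO males, its Log2FC ranked 297, and among the 86 risen in the HET females it ranked 55. Its rise was thus of middling size among the genes called, which says only where it stood. It was 1 of the 937 genes called in males at q under 0.1 (5.24% of the genes tested) and 1 of the 91 called in females (0.509%), and nothing is read from these calls because the same contrasts chose the gene. The share of all tested genes whose mutant and WT animals did not overlap was 8.91% in males and 4.47% in females.

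**Figure D1:**
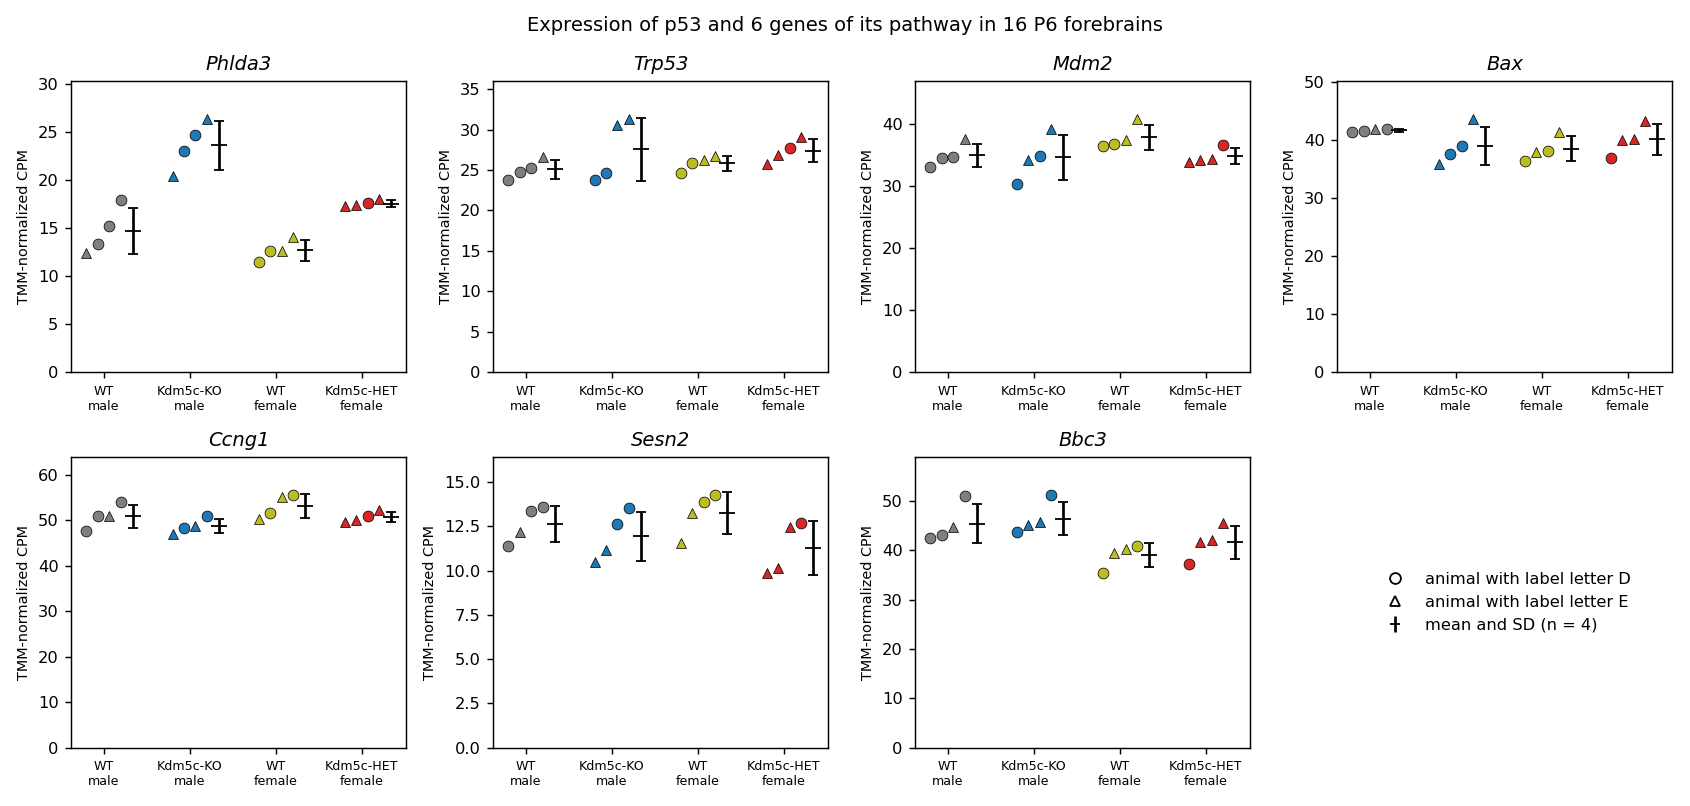
Level of *Phlda3*, *Trp53*, *Mdm2*, *Bax*, *Ccng1*, *Sesn2*, and *Bbc3* in each of 16 P6 forebrains, in TMM-normalized CPM on axes that start at 0. Circles and triangles are single animals with the letter D or E in the label, and the bar beside each group is the mean with its SD (n = 4). The mutant animals lie above the WT animals of their sex for *Phlda3* and overlap with them for the other 6 genes.

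The *Phlda3* level of the mutants was above that of the WT animals within both letters of the sample labels. The ratio of KO to WT males was 1.54 among the D animals (2 against 3) and 1.88 among the E animals (2 against 1). The ratio of HET to WT females was 1.47 among the D animals (1 against 2) and 1.31 among the E animals (3 against 2). With the letter as a covariate, the Log2FC was 0.69 in males and 0.48 in females. Leaving out 1 animal at a time gave a Log2FC of 0.61 to 0.79 for the males, where for the females it gave 0.42 to 0.52, and the highest male value came without the WT male 5D.

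*Trp53*, which encodes p53, lies at chr11:69580348-69591873. Its level was 24.7 CPM (2D), 23.7 (5D), 25.2 (7D), and 26.6 (1E) in the WT males and 24.6 (4D), 23.8 (6D), 30.6 (2E), and 31.3 (3E) in the KO males. The KO males fell apart by letter, with both D animals within the WT range and both E animals above every other animal of the study. The Log2FC was 0.14 (SE 0.0793, interval -0.03 to 0.30) and did not pass the test (q = 0.405). In females the WT animals lay between 24.6 and 26.8 CPM and the HET animals between 25.8 and 29.1, with a Log2FC of 0.08 (SE 0.0791, q = 0.975).

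*Mdm2*, the ubiquitin ligase in the feedback loop on p53, lies at chr10:117688875-117710758. It was at 34.9 ± 1.83 CPM in WT males and 34.6 ± 3.62 in KO males (SD, n = 4), with a Log2FC of -0.01 (SE 0.0669, interval -0.15 to 0.13, q = 0.954). A rise of *Mdm2* by more than 9.28% in KO males is outside this interval. In females it was at 37.8 ± 2.01 CPM in WT and 34.7 ± 1.27 in HET animals, with a Log2FC of -0.12 (SE 0.0667, interval -0.26 to 0.02, q = 0.879). The direction in females was thus opposite to that of *Phlda3*, at a size that the test did not separate from 0.

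*Ccng1* (chr11:40748552-40755309), the cyclin in the feedback on p53, had the smallest coefficient of variation of the 7 genes over all 16 animals, 4.83%, with levels between 47.0 and 55.6 CPM. Its Log2FC was -0.06 in males (SE 0.0490, q = 0.586) and -0.07 in females (SE 0.0489, q = 0.937). The intervals of both differences allowed a rise of at most 2.86% in males and 2.40% in females.

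The 2 apoptosis genes did not pass the test in either sex. *Bax* (chr7:45461695-45466903), whose product permeabilizes the mitochondrial membrane, was at 41.7 ± 0.281 CPM in WT males and 39.0 ± 3.34 in KO males (SD, n = 4). The 4 WT males lay within 41.4 to 41.9 CPM, while the KO males spread from 35.8 to 43.6 around them. Its Log2FC was -0.10 in males (SE 0.0619, q = 0.481) and 0.06 in females (SE 0.0620, q = 0.976). *Bbc3* (chr7:16308398-16318334), which encodes PUMA, had a Log2FC of 0.03 in males (SE 0.0716, q = 0.876) and 0.09 in females (SE 0.0722, q = 0.953).

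*Bbc3* was also compared between the WT sexes, and is described here because it was the 1 of the 6 whose WT groups did not overlap. It was at 42.5 (2D), 51.0 (5D), 43.0 (7D), and 44.7 CPM (1E) in WT males and at 35.4 (1D), 40.8 (3D), 40.3 (4E), and 39.4 (5E) in WT females. All 4 WT females lay below the 4 WT males. Of all genes tested, 10.6% did not overlap between the WT sexes, so that 1 of 6 is near the background. The Log2FC of females against males was -0.22 (SE 0.0720, interval -0.37 to -0.07), with q = 0.113 over all genes, just above the threshold. DESeq2 put *Bbc3* below the threshold (q = 0.0536), as did the fit with the label letter as a covariate (q = 0.0578), whereas without the WT male 5D the Log2FC was -0.16 (q = 0.348). Of the genes tested, 5.0% were called between the WT sexes. *Bbc3* had the smallest q of the 7 genes in this comparison, and none was called.

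*Sesn2* (chr4:132492804-132510456), which encodes Sestrin 2, had the lowest counts of the 7 genes, between 248 and 417 per animal. It was at 13.9 CPM (1D), 14.3 (3D), 11.6 (4E), and 13.2 (5E) in WT females and at 12.7 (9D), 10.1 (6E), 9.83 (8E), and 12.5 (9E) in HET females. The HET females lay mostly below the WT females but overlapped with them. The Log2FC was -0.23 (SE 0.105, interval -0.45 to -0.01), with an unadjusted p of 0.0382 and q = 0.715 in edgeR, and an exact permutation p of 0.114. In males the Log2FC was -0.08 (SE 0.105, q = 0.769). *Sesn2* was the 1 gene of the 6 with an unadjusted p below 0.05 in a genotype contrast, and its direction was opposite to that of *Phlda3*.

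None of the 6 genes beside *Phlda3* was thus called in either sex, where 5.24% of all genes tested were called in males and 0.509% in females. In males 2 of the 6 were above 0 and 4 below, with a median Log2FC of -0.04 against -0.01 over all genes, and none had an unadjusted p below 0.05. In females 3 were above and 3 below, with a median of -0.0045 against -0.0008. The intervals of the 6 genes together covered -0.30 to 0.30 in males, and in females they covered -0.45 to 0.25. By these intervals, a rise above 23.5% in males or 18.8% in females is outside the range of each of the 6 genes, and smaller changes lie within it. DESeq2 called none of the 6 either. None of the 6 was called for the difference between the sexes in the effect of the genotype (q from 0.803 to 0.994), a test that called 7 genes in all (0.0392%).

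**Figure D2:**
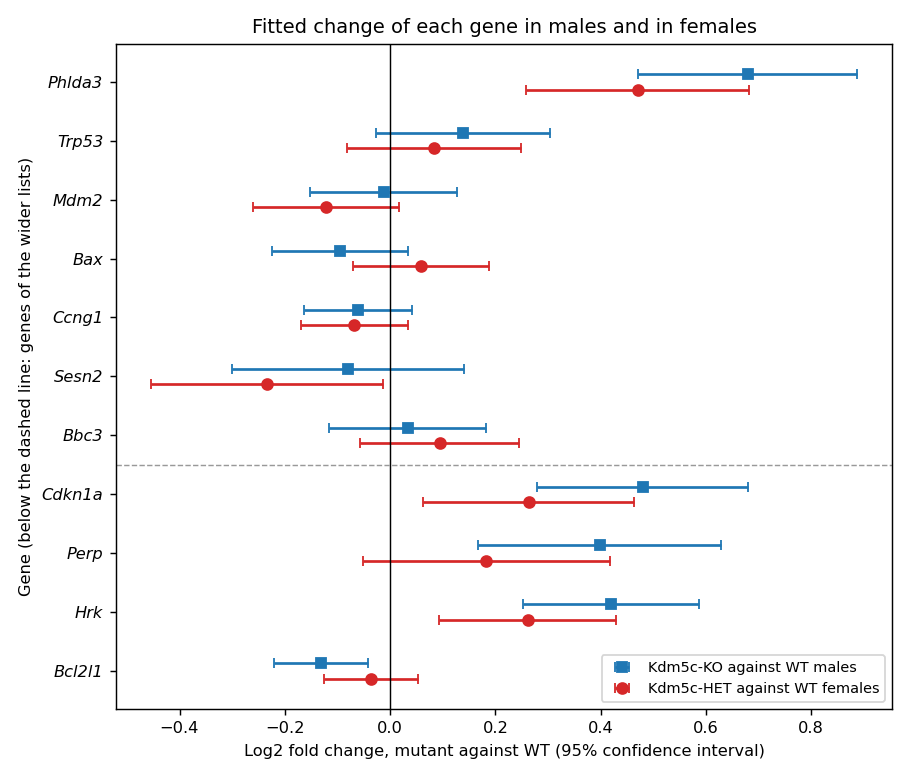
Log2 fold change of mutant against WT animals for each gene, with squares for males, circles for females, and bars for the 95% confidence interval of the edgeR fit. *Phlda3* was chosen on these contrasts and is shown as a description. The intervals of the 6 genes below it include 0 in both sexes, except that of *Sesn2* in females, and the genes under the dashed line are those of the wider lists that carry a symbol.

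The letter in the sample labels moved with a pair of the genes. In a fit with the letter as a covariate, *Sesn2* was lower in the E animals, with a Log2FC of -0.19 (SE 0.0662, q = 0.0452), and *Trp53* was higher, with 0.14 (SE 0.0503, q = 0.0555). Of all genes tested, 23.6% were called for the letter, so that 2 of 7 is close to the background. The q of the other 5 genes, *Phlda3* among them (Log2FC -0.03), lay between 0.234 and 0.837. The letter E marked 1 WT male, 2 KO males, 2 WT females, and 3 HET females, and is thus unequally shared between the groups. With the letter in the fit, the Log2FC of *Sesn2* in females was -0.18 (q = 0.586), and that of *Trp53* in males was 0.10 (q = 0.503).

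**Figure D3:**
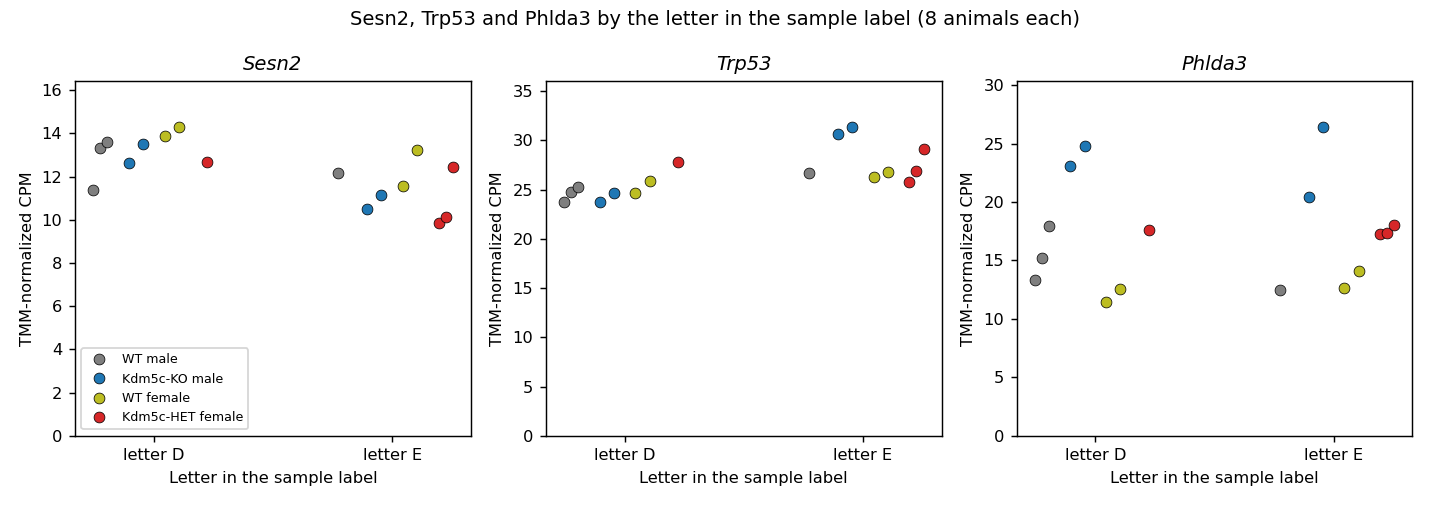
Level of *Sesn2*, *Trp53*, and *Phlda3* in single animals, in TMM-normalized CPM, split by the letter in the sample label and coloured by group. On average the E animals lie lower for *Sesn2* (11.4 against 13.2 CPM) and higher for *Trp53* (27.9 against 25.0), and the 2 letters overlap for both genes. For *Phlda3* the mutants lie above the WT animals of their sex within both letters.

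The wider pathway could be read only in small part, because symbols were at hand for 1021 genes, most of which the study had listed for changing in these animals. Of 30 further p53 targets on the list used here, 2 had a symbol, *Cdkn1a* and *Perp*, and none of 21 p53 regulators did. Of 21 genes of the members' families and the AKT branch, *Hrk* and *Bcl2l1* had one. None of 12 amino acid and ER stress genes had one. The genes of these lists without a symbol were not found among those the study listed as changed, and their levels were not read. The calls of the 2 targets read are thus no measure of the 30. Since the study picked *Cdkn1a*, *Perp*, *Hrk*, and *Bcl2l1* from these libraries, their calls are not independent evidence of a direction.

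*Cdkn1a* (chr17:29090979-29100722) encodes p21, the cell cycle inhibitor that is the classical target of p53. It was at 36.9 CPM (2D), 40.5 (5D), 42.6 (7D), and 28.5 (1E) in WT males and at 47.6 (4D), 57.2 (6D), 55.1 (2E), and 47.5 (3E) in KO males. The groups did not overlap, and the Log2FC was 0.48 (SE 0.0956, q = 0.00618). In females it was at 36.0 ± 3.46 CPM in WT and 43.2 ± 0.747 in HET animals (SD, n = 4), also without overlap. Here the Log2FC of 0.26 (SE 0.0961) did not pass the test (q = 0.534), and the male and female values did not differ beyond their error (difference 0.22, SE 0.135, q = 0.832). *Cdkn1a* thus rose in males alongside *Phlda3*, while *Mdm2*, *Bax*, *Ccng1*, *Sesn2*, and *Bbc3* were not called.

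*Perp* (chr10:18845071-18857073), a membrane protein of desmosomes and a p53 effector in apoptosis, was at 5.64 CPM (2D), 7.13 (5D), 6.77 (7D), and 5.31 (1E) in WT males and at 7.94 (4D), 8.29 (6D), 7.43 (2E), and 9.14 (3E) in KO males. Its Log2FC was 0.40 (SE 0.111, q = 0.0537). The call was lost when the WT male 2D (q = 0.168), the WT male 1E (q = 0.132), or the KO male 3E (q = 0.176) was left out. In females the Log2FC was 0.18 (SE 0.112, q = 0.911), with an overlap of the groups. *Perp* had between 115 and 259 counts per animal.

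*Hrk* (chr5:118169764-118189478), a BH3-only gene of neurons like *Bbc3* in kind, rose in the KO males from 69.4 ± 6.07 to 93.0 ± 9.90 CPM (SD, n = 4), with a Log2FC of 0.42 (SE 0.0801, q = 0.00425). In females its Log2FC was 0.26 (SE 0.0804, q = 0.336), and the groups did not overlap. *Hrk* was also lower in the E animals (Log2FC -0.23, q = 2.53e-05), and with the letter as a covariate it was called in females (0.32, q = 1.52e-04). *Bcl2l1* encodes the anti-apoptotic protein BCL-xL. In the main edgeR fit it was not called in males (Log2FC -0.13, SE 0.0427, q = 0.114) or in females (-0.04, SE 0.0428, q = 0.979). In males it was called with DESeq2 (-0.13, q = 0.0998) and with the letter as a covariate (-0.13, q = 0.0722). It was also called there without the KO male 6D (-0.17, q = 0.0373). In RefSeq *Bcl2l1* overlaps with *Cox4i2* and *Gm32211*, so its count is uncertain if strand was not used in counting. None of the 7 genes overlaps with another RefSeq gene.

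**Figure D4:**
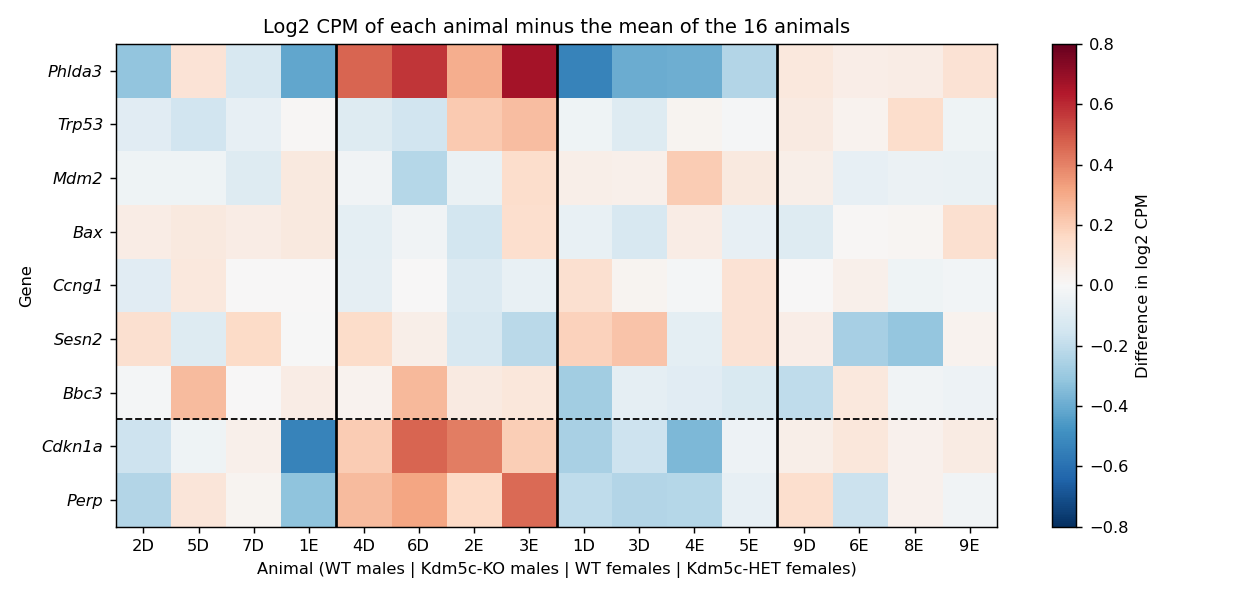
Log2 CPM of each animal minus the mean of the 16 animals, for the 7 genes and, under the dashed line, *Cdkn1a* and *Perp*. Columns are animals grouped by sex, the WT before the mutant animals and the males before the females, and red is above and blue below the mean. The KO males are above the mean in all 4 animals for *Phlda3*, *Cdkn1a*, and *Perp*, whereas the rows of *Mdm2*, *Bax*, and *Ccng1* are pale.

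The likeness of other genes to *Phlda3* was measured as Pearson's r of log2 CPM over the 16 animals, in which both genes of a pair were read from the same library. As measured, the r of *Phlda3* was 0.594 with *Bbc3*, 0.258 with *Trp53*, and 0.041 with *Bax*. It was -0.395 with *Mdm2*, -0.399 with *Sesn2*, and -0.447 with *Ccng1*. The r with *Cdkn1a* was 0.863 and that with *Perp* 0.933. The 5 most alike of the 948 genes with a symbol and a mean of at least 1 CPM were *Lhfpl5* (0.945), *Cldn3* (0.944), *Perp*, *Gjb1* (0.929), and *Syce2* (0.927). These values include the difference between genotypes, which chose both *Phlda3* and most of the genes with a symbol. Leaving out each animal in turn kept 3 to 5 of these 5 genes.

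With the group means subtracted, so that only the variation between animals of a group remained, *Perp* was the most alike of the 948 genes, with r = 0.835 (Spearman's rho 0.809). Among all 17865 other genes it ranked 2. Without the 2 animals farthest from the median of *Phlda3*, the WT males 5D and 1E, r was 0.728. Over the fits that left out 1 animal, r lay between 0.777 and 0.886, and *Perp* ranked 1 to 4 among the genes with a symbol. The values for *Cdkn1a* were 0.486 over 16 animals and 0.146 without those 2, so that this relation rests on them. Among the 6 members, r was 0.495 for *Bbc3*, 0.455 for *Ccng1*, and 0.365 for *Bax*, and between -0.234 and -0.044 for *Trp53*, *Sesn2*, and *Mdm2*. Without the WT males 5D and 1E, r was 0.347 for *Bbc3*, 0.355 for *Ccng1*, and 0.505 for *Bax*. It was then -0.053 for *Trp53*, -0.059 for *Sesn2*, and 0.161 for *Mdm2*, whose sign thus turned. Over the 16 animals, the red blood cell genes *Hba-a1* (0.678) and *Hbb-bt* (0.596) were above every member. *Hbb-bs* was at 0.452 and *Hba-a2* at 0.254, and the part of these red blood cell genes in the level of *Phlda3* was not tested. The next genes after *Perp* were *Lhfpl5* (0.737), *Tshz2* (0.720), *Aass* (0.714), and *Pde5a* (0.703). Leaving out each animal in turn kept 1 to 5 of these 5 genes, *Perp* included, among the 5 most alike.

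**Figure D5:**
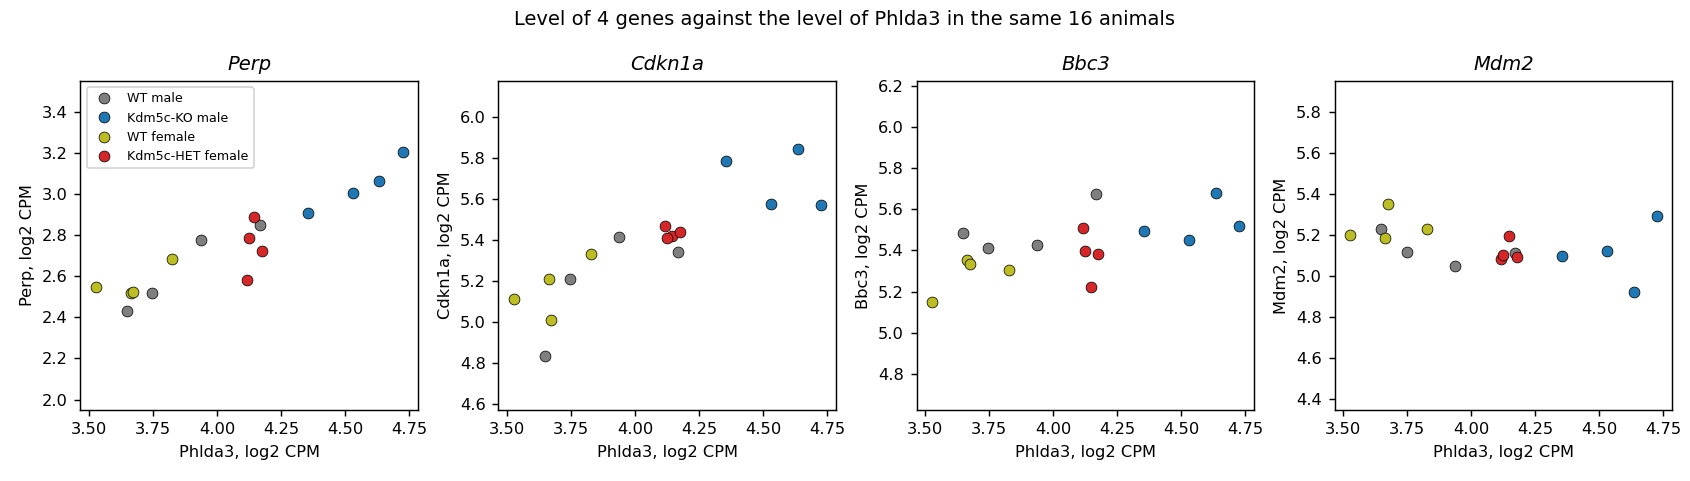
Log2 CPM of *Perp*, *Cdkn1a*, *Bbc3*, and *Mdm2* against that of *Phlda3* in the same 16 animals, coloured by group, with vertical axes of equal span. *Perp* follows *Phlda3* between groups and, with the 16 animals pooled, also after the group means are subtracted (r = 0.835). Among the HET females the order differed, with 9E highest in *Phlda3* but below 9D and 8E in *Perp*. For *Mdm2* that r was -0.044 over the 16 animals and 0.161 without the WT males 5D and 1E.

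The markers of other cells that had a symbol also differed between the KO and WT males. They had a symbol only because the study had listed them for changing in these animals. Their differences are thus a description and not independent evidence of a change in cell makeup. The summed level of the 4 hemoglobin genes with a symbol, of 6 red blood cell markers listed, was 118 to 146 CPM in WT males and 66.1 to 107 in KO males, and *Hba-a1* fell by 0.59 on the log2 scale (q = 0.00131). The sum of *Ttr* and *Aqp1*, 2 of 6 choroid plexus markers, was 1.48 to 205 CPM in WT males and 1.98 to 2.83 in KO males, with high values in the WT males 2D and 5D. *Rbfox3*, 1 of 6 neuronal markers, had a Log2FC of -0.19 (q = 0.0642), and *Aqp4*, 1 of 6 astrocyte markers, one of -0.24 (q = 0.115). None of these genes was called in females (q from 0.909 to 0.999), where *Phlda3* lay higher in every HET animal. Without the WT males 2D and 5D, the Log2FC of *Phlda3* in males was 0.77 and that of *Cdkn1a* 0.54 (q = 0.0411), whereas *Perp* was no longer called (0.44, q = 0.195). Markers of cycling cells, microglia, endothelial cells, and meninges could not be read, and the part of cell makeup in the values of *Phlda3* was otherwise not tested.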

How the data were processed

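The deposited counts were raw whole numbers of reads per Ensembl gene, which the authors made by mapping paired-end reads of directional poly(A) libraries to mm10 with STAR 2.5.3a, removing duplicates, keeping uniquely mapped reads, and counting with featureCounts (Subread 1.5.0), tools also named in the submitters' processing notes. The strand setting of the counting is not given in the sources used here. Animals were grouped by the sex and genotype in their labels. Depth ranged from 21513783 to 30063352 counts.

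In R 4.3.3, edgeR 4.0.16 kept genes by filterByExpr, normalized by TMM, and fitted 1 mean per group over all 16 animals by quasi-likelihood. Adjusted p-values (q) were from Benjamini-Hochberg over the 17866 genes tested, and genes with q under 0.1 were called. Log2 CPM used a prior count of 2. Scripts were tested on simulated data. The members and gene lists were chosen with earlier results of these data known. Named were the 7 members, every gene of the lists past the threshold in a genotype contrast, the 2 largest in males of those that were not, and the 5 genes most like *Phlda3*. Symbols came from the study's supplementary tables and coordinates from RefSeq on GRCm38.p6. Columns of the authors' own comparisons in those tables were not used. Alternatives were DESeq2 1.42.0, its size factors, other filters, fits by sex, the label letter as a covariate, q under 0.05, and leaving out animals. The fit without the WT males 2D and 5D was chosen after seeing the data. Within groups, the chi-square per gene between animals was 2.89 to 15.2 over 24 pairs, above sampling noise.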

Additional observations from a re-analysis of the deposited data

Results flagged for a closer look

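Of 44 groups of 4 animals checked for a value far from the others, 1 stood out. *Perp* was at 6.35 CPM in the WT female 5E, while the other 3 WT females lay between 5.65 and 5.77 CPM. The same animal had the highest *Phlda3* of the WT females. Chance alone is expected to mark about 1 in 20 such groups.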

How the results depend on the processing

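No member beside *Phlda3* was called in a genotype contrast or for the interaction under any alternative run. *Bbc3* made 1 member called between the WT sexes with DESeq2, with no filter, with the letter as a covariate, and without the HET female 9D or the KO male 6D (0 to 1 over the animals left out). Of *Cdkn1a* and *Perp*, 1 was called in males in the fit of males alone, without the WT males 2D and 5D, and at q under 0.05 (1 to 2 over the animals left out), and 1 in females with no filter. Over all genes, 1468 were called in males with the letter, 274 without 2D and 5D, and 583 at q under 0.05 (555 to 1129 over the animals left out, lowest without 5D, and also over 1.5 times lower without 2D, 2E, or 3E). In females 142 were called with DESeq2, 228 with no filter, and 157 with the letter (50 to 89, lowest without 3D, then 8E and 6E). For the interaction these were 27, 80, and 24, and 3 without 2D and 5D (5 to 9). Between the WT sexes 1529 were called with DESeq2, 1679 with the letter, 10 without 2D and 5D, and 348 at q under 0.05 (69 to 1243, lowest without the WT female 5E, then 5D, 7D, and 4E).

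Small values changed sign. Between the WT sexes, without 2D and 5D, *Trp53* was at -0.00417, *Cdkn1a* at 0.0146, and *Hrk* at 0.0267, and with the letter *Hrk* was at 0.00388. With single animals left out, the ranges that crossed 0 were -0.0768 to 0.0478 for *Mdm2* and -0.0170 to 0.0987 for *Bbc3* in males. For the interaction they were -0.0123 to 0.124 for *Trp53*, -0.0213 to 0.0409 for *Ccng1*, and -0.109 to 0.00698 for *Bbc3*, and between the WT sexes -0.153 to 0.0212 for *Cdkn1a*. None of these values was called, and the cause of the changes was not tested. Every member had at least 248 counts in every animal. The labels hold no replicate number that pairs animals across groups, and the letter served as the only blocking term.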
